A study of Mus musculus with 6 samples.

Results

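The genes described are 45 mouse genes of extracellular matrix glycoproteins, proteoglycans and lysyl oxidase crosslinkers, chosen by name. All 45 were found among the 55494 gene rows of the deposited count table, and all 45 passed the filter on low counts that left 16097 genes for testing. Bulk RNA sequencing measured them in primary muscle stem cells (MuSCs) of wild-type mice, the cells that rebuild skeletal muscle fibres after injury. In 1 group the cells were cultured for 2 days with 11,12-EET, an epoxyeicosatrienoic acid formed from arachidonic acid by cytochrome P450 epoxygenases, and in the other group, the control, for 2 days without it. Each group has 3 libraries. The labels give no dose, control medium, strain, age or number of mice. They also do not state that the 3 libraries of a group are separate cultures or animals, so every p-value reflects the scatter among these libraries alone, and that scatter may be technical.

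The extracellular matrix is the protein and sugar mesh that cells secrete around themselves. In muscle, stem cells lie under a basement membrane in which nidogens and perlecan tie laminin and collagen networks together, while fibronectin, tenascin C and thrombospondins are laid down after injury and are bound by integrins and other receptors. Fibrillins, fibulins and microfibril proteins build elastic fibres, latent TGF-beta binding proteins store inactive growth factor on them, small leucine-rich proteoglycans sit on collagen fibrils, and lysyl oxidases cross-link collagen and elastin.

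Most of these matrix genes were lower with EET. Of the 45 genes 27 were called lower and 2 higher, where called means a Benjamini-Hochberg adjusted p under 0.05 over all 16097 genes in edgeR's quasi-likelihood test, and 16 were not called. Over all genes tested 47.9% were called, 23.3% lower and 24.6% higher. The median log2 fold change of the 45 genes was −0.38, against 0.01 over all genes tested. The 3 EET libraries lay wholly below the 3 control libraries for 29 of the 45 genes, wholly above for 3, and overlapped them for 13, where 28.0% of all genes tested lay below and 29.6% above. Only 3 of the called genes were at least 2-fold lower, Fn1, Fbn1 and Fbn2. In bulk RNA, fewer cells of a type and less RNA per cell cannot be told apart.

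**Figure D1:**
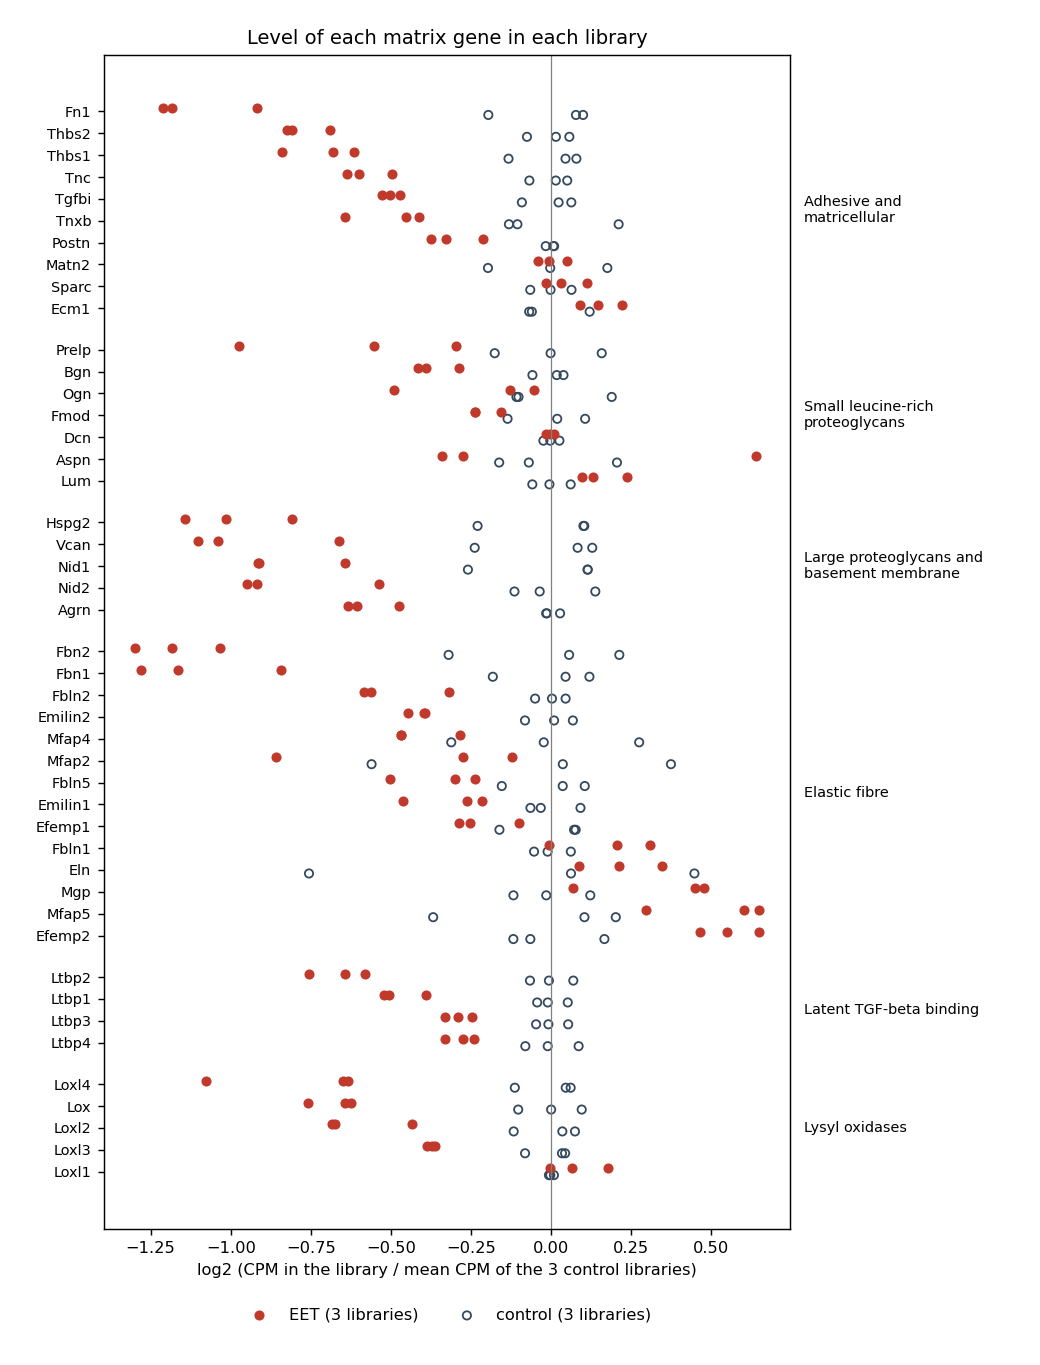
Each point is 1 library, EET as filled red circles (3 per gene) and control as open circles (3 per gene), on a horizontal axis of log2 CPM relative to the mean of the control libraries, with genes in rows ordered by fold change within each role. The EET libraries of Fn1, Fbn1, Fbn2, Hspg2 and Vcan sit farthest left, and those of Efemp2 and Mfap5 lie wholly to the right of the control libraries.

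The libraries held 30371291 to 37243882 counts, and levels are given as CPM, counts scaled to a common library total after TMM normalization. The transcripts of the 45 genes made up 0.719 to 0.798% of all counts in the EET libraries and 1.06 to 1.14% in the control libraries, without overlap. Added together, the 45 genes thus took a smaller share of the deposited counts with EET. This sum is mostly that of a few abundant genes, and no share corrected for mRNA length was computed. Tnc, Sparc, Thbs1, Fn1 and Hspg2 together gave 65.7 to 66.0% of those counts in the EET libraries and 66.7 to 67.8% in the control libraries.

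Long mRNAs were more often called lower than higher in the EET libraries, and many matrix mRNAs are long. The median mRNA length was 3853 bp for the 45 genes and 3202 bp for the 13811 protein-coding genes tested. Set against the mean of the 6 libraries, log2 levels shifted per doubling of mRNA length by −0.27, −0.21 and −0.11 in the EET libraries and by 0.12, 0.24 and 0.24 log2 units in the control libraries. The sign of this trend divides the libraries by group. A technical difference between the libraries and the treatment therefore cannot be told apart here, and the origin of the trend was not tested. Across the 45 genes the log2 fold change and mRNA length had a Spearman rho of −0.74, against −0.68 across all coding genes; this is a description across genes of the same 6 libraries.

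Within bands of length the median of the matrix genes was also below that of all coding genes. Of 8 matrix mRNAs of 7000 bp and over, 8 were called lower, beside 73.5% of all coding mRNAs of that length, and the median log2 fold changes were −0.95 and −0.62. From 4000 to 7000 bp, 12 of 13 were called lower, beside 52.7% of coding mRNAs, with medians of −0.59 and −0.32. From 2000 to 4000 bp, 7 of 18 were called lower and 1 higher, beside 12.1% and 22.4% of coding mRNAs, with medians of −0.21 and 0.05. Under 2000 bp, 0 of 6 were called lower and 1 higher, beside 1.34% and 65.6% of coding mRNAs, with medians of 0.08 and 0.55. None of these band differences was tested.

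**Figure D2:**
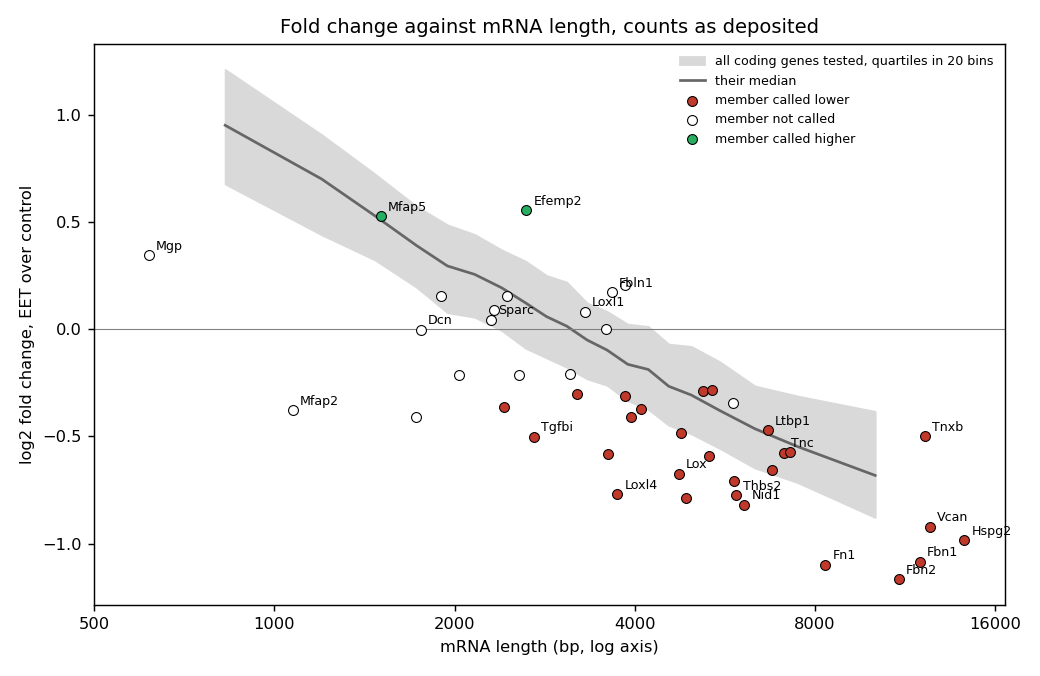
The log2 fold change of EET over control (vertical axis) is plotted against mRNA length (horizontal log axis, bp); the grey band and line are the quartiles and the median of coding genes in 20 bins, and each circle is 1 of the 45 genes, coloured by its call on the deposited counts. Red circles of genes called lower fill the long side and mostly lie under the grey line, while Efemp2 lies above the band at its length.

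The same test was therefore run after the dependence on mRNA length and GC content had been taken out of each library, which gives each gene's change relative to mRNAs of similar length and composition. In that fit 26 of the 45 genes were called lower and 2 higher, Efemp2 and Fbln1, against 32.3% called over all genes tested, 17.1% lower and 15.3% higher. The median log2 fold change of the 45 genes was −0.23, against −0.03 over all genes, and 0 called genes were 2-fold lower or more. The 3 EET libraries were wholly below the control libraries for 28 genes and above for 2, where 24.5% and 20.7% of all genes tested did. The Spearman rho of the fold change with length across the 45 genes was 0.09 in this fit.

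Both fits called 19 genes lower. Another 8 were called lower on the deposited counts alone (Tnc, Tnxb, Hspg2, Agrn, Ltbp1, Ltbp3, Ltbp4 and Prelp), and 7 only against mRNAs of similar length and GC (Ecm1, Sparc, Mgp, Mfap4, Efemp1, Ogn and Dcn). Mfap5 was called higher on the deposited counts alone and Fbln1 only with the trend removed. None of the 45 was called in opposite directions by the 2 fits.

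**Figure D3:**
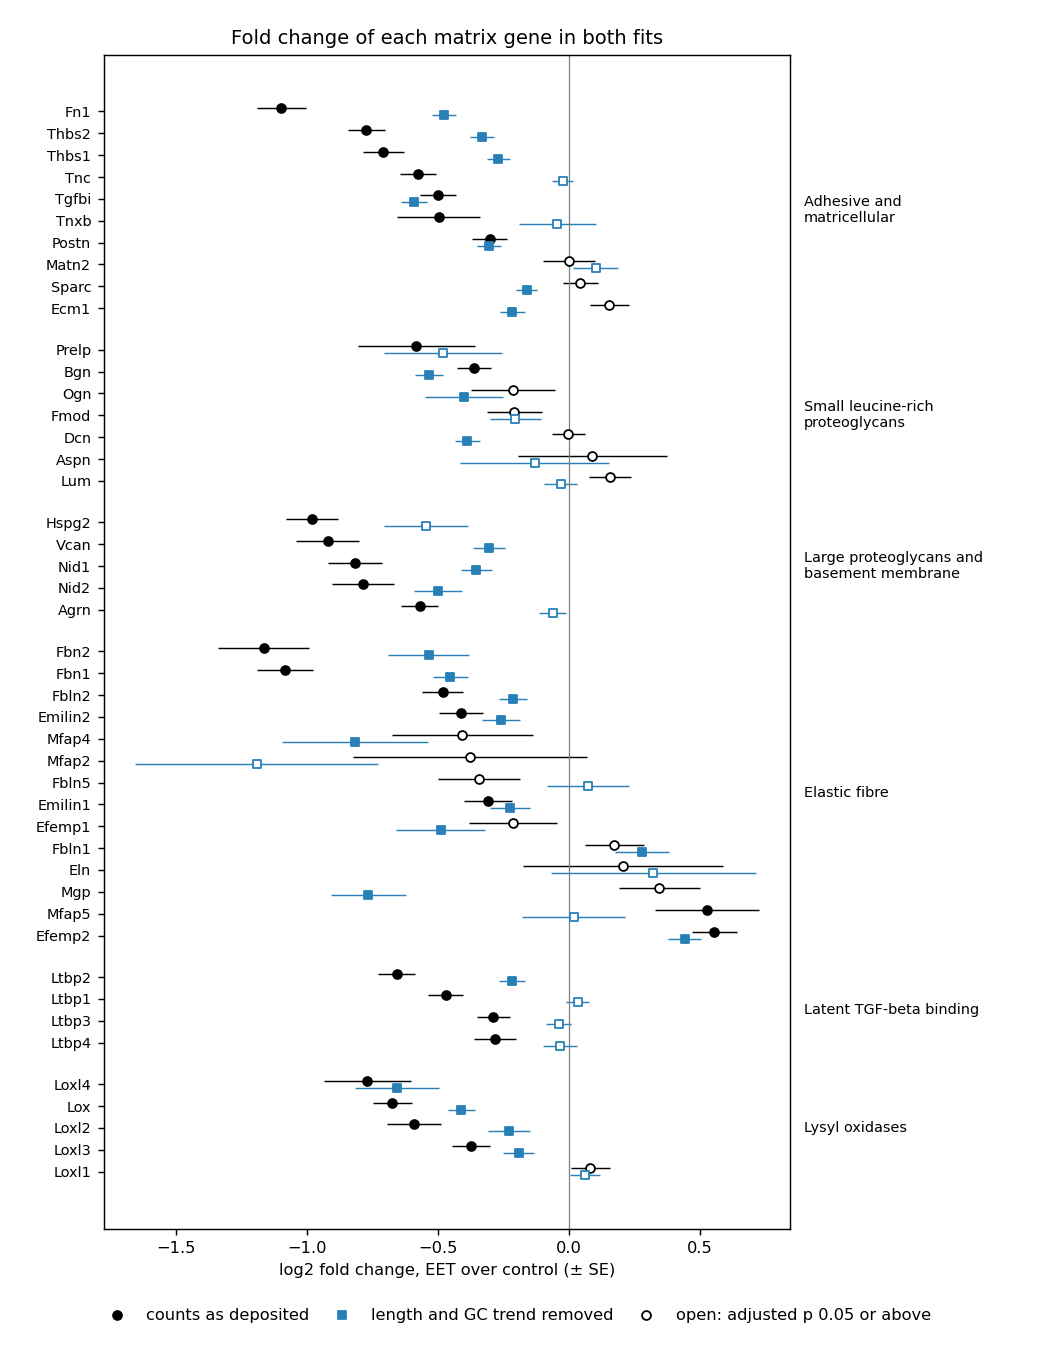
Points are log2 fold changes of EET over control with standard errors, black circles for the deposited counts and blue squares for the fit corrected for length and GC, with genes in rows; filled symbols have an adjusted p under 0.05. Fn1, Fbn1 and Fbn2 move from beyond −1 to about −0.5 when the trend is removed, Tgfbi and Bgn lie between −0.36 and −0.59 in both fits, and the latent TGF-beta binding genes Ltbp1, Ltbp3 and Ltbp4 move to near 0.

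Adhesive and matricellular glycoproteins link cells to the matrix or tune that contact. Of 10 such genes 7 were called lower and 0 higher in each fit, though 2 of the 7 differ. Over all genes tested 23.3% were called lower, or 17.1% with the trend removed. On the deposited counts the largest fall was in Fn1 (GRCm38 chromosome 1, 71585520-71653200, minus strand), which encodes fibronectin, the glycoprotein that integrins bind and assemble into fibrils. Fn1 measured 398, 391 and 479 CPM in the EET libraries, against 790, 970 and 955 CPM in the control libraries. Every EET library was below every control library, and the lowest control library, control 1, stood well above the highest EET library, EET 3. Fn1 had a log2 fold change of −1.10 ± 0.09 (SE, edgeR adjusted p = 1.35e-06) and −0.48 ± 0.05 with the trend removed (adjusted p = 2.83e-07), a smaller change past the same threshold.

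Both thrombospondins fell. Thbs2 (chromosome 17, 14665500-14694235, minus strand) measured 89.8, 90.7 and 98.7 CPM in the EET libraries, against 151, 166 and 161 CPM in the control libraries. Thbs1 (chromosome 2, 118111876-118127133, plus strand), which encodes thrombospondin 1, an activator of latent TGF-beta and an inhibitor of angiogenesis, measured 1006, 1123 and 1176 CPM in the EET libraries, against 1642, 1902 and 1858 CPM in the control libraries. In both genes the groups were clearly apart, and control 1 was the lowest control library. Their log2 fold changes were −0.77 ± 0.07 for Thbs2 (edgeR adjusted p = 1.62e-06) and −0.71 ± 0.08 for Thbs1 (adjusted p = 6.04e-06). With the trend removed they were −0.33 ± 0.05 (adjusted p = 1.84e-05) and −0.27 ± 0.04 (adjusted p = 9.25e-05).

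Tenascin C and TGFBI, 2 further ligands for integrins, parted when length was taken into account. Tnc (chromosome 4, 63959785-64047015, minus strand) has an mRNA of 7106 bp and measured 1488, 1448 and 1600 CPM in the EET libraries, against 2151, 2335 and 2278 CPM in the control libraries. Its groups did not overlap, and its log2 fold change was −0.58 ± 0.07 (edgeR adjusted p = 9.48e-06), but with the trend removed it was −0.02 ± 0.04 (adjusted p = 0.68) and the groups overlapped. Tgfbi (chromosome 13, 56609523-56639562, plus strand), whose mRNA is 2714 bp, measured 89.7, 86.4 and 87.9 CPM in the EET libraries, against 130, 126 and 117 CPM in the control libraries. Its EET libraries lay close together under every control library. Its log2 fold change was −0.50 ± 0.07 (adjusted p = 3.31e-05) and −0.59 ± 0.05 with the trend removed (adjusted p = 5.78e-08), the smallest p of the 45 genes in that fit.

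Sparc (chromosome 11, 55394500-55423183, minus strand), which encodes the collagen-binding glycoprotein osteonectin, had the highest level per kilobase of mRNA of the 45 genes. It measured 1666, 1524 and 1576 CPM in the EET libraries, against 1611, 1540 and 1474 CPM in the control libraries. The groups overlapped, and the log2 fold change of 0.04 ± 0.07 was not called (edgeR adjusted p = 0.629). Against mRNAs of similar length and GC it was called lower (log2 fold change −0.16 ± 0.04, adjusted p = 0.00375). Ecm1, a small secreted glycoprotein, went the same way, at 0.15 ± 0.07 (adjusted p = 0.104) on the deposited counts and −0.22 ± 0.05 (adjusted p = 0.00154) with the trend removed; without EET 3 or without control 1 it was called higher on the deposited counts (log2 fold change 0.19 and 0.22). Under scaling to library totals alone the value of Sparc was −0.03, not called.

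The remaining adhesive genes were periostin, tenascin X and matrilin 2. Postn, a ligand of integrins made in healing tissue, fell by 0.30 ± 0.07 on the log2 scale, and by 0.31 ± 0.05 with the trend removed. Tnxb measured 4.88 ± 0.405 CPM in the EET libraries and 6.90 ± 0.942 CPM in the control libraries (SD, n = 3 each) and was called lower (log2 fold change −0.50 ± 0.16). That call was lost without EET 1 or without control 3 and with the trend removed (−0.05 ± 0.15). Matn2, an adaptor protein of matrix filaments, had log2 fold changes of 0.00 ± 0.10 and 0.10 ± 0.09 with the trend removed, neither called.

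Lysyl oxidases are copper-dependent enzymes that oxidise lysines of collagen and elastin so that the fibres cross-link. Of the 5 genes 4 were called lower in both fits, and Loxl1 was called in neither. Among all genes tested 23.3% were called lower, or 17.1% with the trend removed. Lox, the founding member, on chromosome 18, had the highest level per length of the 5 and measured 79.3, 87.0 and 86.0 CPM in the EET libraries, against 125, 134 and 143 CPM in the control libraries. All EET libraries were below all control libraries. For Lox this was a log2 fold change of −0.67 ± 0.07 (edgeR adjusted p = 5.64e-06), and −0.41 ± 0.05 with the trend removed (adjusted p = 4.38e-06).

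Loxl4 was expressed at a far lower level than Lox, 4.19 ± 0.694 CPM in the EET libraries and 7.16 ± 0.470 CPM in the control libraries (SD, n = 3 each), and its log2 fold changes were −0.77 ± 0.17 and, with the trend removed, −0.66 ± 0.16. Loxl2 and Loxl3 fell by 0.59 ± 0.10 and 0.37 ± 0.07, or by 0.23 ± 0.08 and 0.19 ± 0.06 with the trend removed. Those 2 trend-removed calls did not hold in every fit that left out 1 library, though the values moved little. That of Loxl2 (edgeR adjusted p = 0.0330) was lost without EET 1, EET 2, control 2 or control 3, at −0.20 to −0.23. That of Loxl3 (adjusted p = 0.0166) was lost without control 1 or control 2, at −0.16 and −0.18. Loxl1, which acts on elastin, stood at 66.1 ± 4.23 CPM in the EET libraries and 62.5 ± 0.347 CPM in the control libraries, with log2 fold changes of 0.08 ± 0.07 (adjusted p = 0.397) and 0.06 ± 0.06 with the trend removed (adjusted p = 0.463).

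Of 14 genes of elastic fibres and microfibrils 5 were called lower and 2 higher, or 8 and 2 with the trend removed. The shares over all genes tested were 23.3% and 24.6%, or 17.1% and 15.3% with the trend removed. The 14 include Mgp, an inhibitor of calcification. On the deposited counts the fibrillins, whose polymers form the microfibrils themselves, fell most. Relative to mRNAs of similar length and GC, Mfap2, Mfap4 and Mgp were further below 0 than the fibrillins, though Mfap2 was not called. The CPM of Mgp itself did not fall, with means of 7.49 in the EET libraries and 5.90 in the control libraries. Fbn1 (chromosome 2, 125300594-125507993, minus strand), with an mRNA of 11971 bp, measured 121, 111 and 151 CPM in the EET libraries, against 239, 294 and 279 CPM in the control libraries. Its groups did not overlap, and EET 3 and control 1 were the libraries nearest to the other group. Fbn1 had a log2 fold change of −1.08 ± 0.11 (edgeR adjusted p = 4.37e-06), and −0.45 ± 0.07 with the trend removed (adjusted p = 0.000186). Fbn2, a fibrillin of developing tissue, averaged 3.62 ± 0.336 CPM in the EET libraries and 8.13 ± 1.48 CPM in the control libraries (SD, n = 3 each). It fell by 1.17 ± 0.17 on the log2 scale, or by 0.54 ± 0.15 with the trend removed, a call lost without control 2.

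Fibulins are calcium-binding glycoproteins that join elastin to microfibrils, and single members were called in different directions. Fbln2 (chromosome 6, 91212455-91272540, plus strand) had the highest level per length of the 14 genes and measured 118, 119 and 141 CPM in the EET libraries, against 182, 177 and 170 CPM in the control libraries. Every EET library was below every control library, and its log2 fold change was −0.48 ± 0.08 (edgeR adjusted p = 0.000122) or −0.21 ± 0.05 with the trend removed (adjusted p = 0.00457). Fbln1 had 0.17 ± 0.11 (adjusted p = 0.234) on the deposited counts and was called higher with the trend removed at 0.28 ± 0.10 (adjusted p = 0.0452), a call kept only when EET 1 was left out and lost without any other single library. Fbln5 was called in neither fit (−0.35 ± 0.16 and 0.07 ± 0.16), though it was called lower with library totals (−0.41) and with a filter of above 5 CPM (−0.35).

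Efemp2 (chromosome 19, 5473954-5482517, plus strand) encodes fibulin 4, which brings lysyl oxidase to elastin, and it was higher with EET in both fits; its library values are given because of that result. It measured 86.4, 80.6 and 76.1 CPM in the EET libraries, against 61.9, 52.7 and 50.8 CPM in the control libraries. All EET libraries were above all control libraries. The log2 fold change of Efemp2 was 0.55 ± 0.09 (edgeR adjusted p = 0.000101), and 0.44 ± 0.06 with the trend removed (adjusted p = 2.19e-05). Its exons overlap those of Mus81 on the opposite strand over 173 bp (6.57% of the Efemp2 mRNA), and Mus81 itself had a log2 fold change of 0.44, or 0.13 with the trend removed. Efemp1, which encodes the relative fibulin 3, was at 4.15 ± 0.287 CPM in the EET libraries and 4.80 ± 0.440 CPM in the control libraries, with −0.21 ± 0.17 (not called) and −0.49 ± 0.17 with the trend removed. That Efemp1 call was lost without EET 1, EET 2, control 1 or control 2.

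Emilins are glycoproteins at the interface of elastin and microfibrils, and both were called lower in both fits. Emilin2 fell by 0.41 ± 0.08 on the log2 scale and Emilin1 by 0.31 ± 0.09, or by 0.26 ± 0.07 and 0.23 ± 0.08 with the trend removed. The Emilin1 call was lost without EET 2, and with the trend removed also without control 1 or control 2. Mfap5, a microfibril glycoprotein, was called higher on the deposited counts (4.73 ± 0.605 CPM in the EET libraries and 3.29 ± 0.653 CPM in the control libraries; log2 fold change 0.53 ± 0.20, adjusted p = 0.0399). That call was lost in 4 of the 6 fits that left out 1 library (EET 1, EET 2, control 1 or control 2), under DESeq2 and library totals, and with the trend removed (0.02 ± 0.20, adjusted p = 0.96).

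The remaining genes of these 14 are Mgp, Mfap4, Mfap2 and Eln. Mgp, an inhibitor of calcification with an mRNA of 617 bp, had 0.35 ± 0.16 (not called, but called without EET 3 at 0.47) on the deposited counts and −0.77 ± 0.14 with the trend removed (adjusted p = 0.000392). Mfap4 had −0.41 ± 0.27 (not called) and −0.82 ± 0.28 with the trend removed, where the call was lost without EET 1, EET 2 or control 2. Mfap2 (−0.38 ± 0.45 and −1.19 ± 0.46) and Eln, elastin itself (0.21 ± 0.38 and 0.32 ± 0.39), were called in neither fit, except Mfap2 with the trend removed when control 1 was left out (−1.46). Eln had a mean of 0.937 ± 0.0843 CPM in the EET libraries and 0.805 ± 0.312 CPM in the control libraries, the lowest level per length of the 45 genes, and a difference was not detectable at this depth.

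All 5 genes of large proteoglycans and basement membrane linkers were called lower on the deposited counts, and 3 with the trend removed. Over all genes tested 23.3% and 17.1% were called lower. On the deposited counts 52.7% of coding mRNAs of 4000 to 7000 bp were called lower, and 73.5% of those of 7000 bp and over. Hspg2 (chromosome 4, 137468769-137570630, plus strand), which encodes the heparan sulfate proteoglycan perlecan, measured 409, 374 and 471 CPM in the EET libraries, against 704, 887 and 885 CPM in the control libraries. The groups did not overlap, and its mRNA of 14187 bp was the longest of the 45. The log2 fold change of Hspg2 was −0.98 ± 0.10 (edgeR adjusted p = 4.64e-06), but with the trend removed it was −0.55 ± 0.16 and was not called (adjusted p = 0.0665) although its groups still did not overlap. It was called there without EET 2 (−0.46) or without EET 3 (−0.62).

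Nid1 (chromosome 13, 13437551-13512269, plus strand), which encodes nidogen 1, the link between laminin and collagen IV, measured 135, 134 and 162 CPM in the EET libraries, against 212, 274 and 274 CPM in the control libraries. Agrn (chromosome 4, 156165290-156197488, minus strand), which encodes agrin, the heparan sulfate proteoglycan that clusters acetylcholine receptors at the neuromuscular junction, measured 73.3, 74.8 and 81.9 CPM in the EET libraries, against 113, 116 and 113 CPM in the control libraries. Both genes had all EET libraries under all control libraries. Nid1 had a log2 fold change of −0.82 ± 0.10 (edgeR adjusted p = 2.28e-05) and −0.35 ± 0.06 with the trend removed (adjusted p = 0.000292), whereas Agrn had −0.57 ± 0.07 (adjusted p = 1.33e-05) and −0.06 ± 0.05 with the trend removed (adjusted p = 0.383). Nid2, the second nidogen, fell by 0.79 ± 0.12, or by 0.50 ± 0.09 with the trend removed, and Vcan, the chondroitin sulfate proteoglycan versican that binds hyaluronan, fell by 0.92 ± 0.12, or by 0.31 ± 0.06.

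Latent TGF-beta binding proteins hold the inactive growth factor in the matrix. All 4 genes were called lower on the deposited counts, but only Ltbp2 with the trend removed. Over all genes tested 23.3% and 17.1% were called lower. Among coding mRNAs of 4000 to 7000 bp, the band of these 4, 52.7% were called lower on the deposited counts. Ltbp1 (chromosome 17, 75005568-75392512, plus strand) had the highest level per length of the 4 and measured 282, 285 and 309 CPM in the EET libraries, against 393, 420 and 402 CPM in the control libraries. Ltbp2 (chromosome 12, 84783212-84876532, minus strand), which does not bind TGF-beta itself, measured 106, 98.0 and 110 CPM in the EET libraries, against 158, 173 and 165 CPM in the control libraries. The groups were apart in both genes. The log2 fold change of Ltbp1 was −0.47 ± 0.07 (edgeR adjusted p = 3.83e-05) and 0.03 ± 0.04 with the trend removed (adjusted p = 0.605), while that of Ltbp2 was −0.66 ± 0.07 (adjusted p = 4.96e-06) and −0.22 ± 0.05 (adjusted p = 0.00213). Ltbp3 and Ltbp4 fell by 0.29 ± 0.06 and 0.28 ± 0.08 on the deposited counts, and had −0.04 ± 0.05 and −0.04 ± 0.06 with the trend removed.

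Small leucine-rich proteoglycans bind collagen fibrils and set their thickness. Of 7 genes 2 were called lower on the deposited counts and 3 with the trend removed, and 0 were called higher in either fit. The shares called lower over all genes tested were 23.3% and 17.1%, so the count on the deposited counts is near the background. Bgn (chromosome X, 73483602-73495933, plus strand), which encodes biglycan, had the highest level per length of the 7 and measured 383, 376 and 411 CPM in the EET libraries, against 482, 508 and 515 CPM in the control libraries. Every EET library was below every control library. Bgn had a log2 fold change of −0.36 ± 0.07 (edgeR adjusted p = 0.000327) and −0.54 ± 0.05 with the trend removed (adjusted p = 9.15e-07).

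Dcn, which encodes decorin, a close relative of biglycan, averaged 158 ± 1.37 CPM in the EET libraries and 158 ± 2.75 CPM in the control libraries (SD, n = 3 each), a difference within the spread between libraries (log2 fold change −0.00 ± 0.06, edgeR adjusted p = 0.981). Against mRNAs of similar length and GC it was called lower (−0.39 ± 0.05, adjusted p = 4.13e-06), and so was Ogn, which encodes osteoglycin (−0.40 ± 0.15, adjusted p = 0.0453), a call lost without any single library other than EET 3. Prelp was called lower on the deposited counts alone (−0.58 ± 0.22, adjusted p = 0.0434), a call that was lost in 5 of the 6 fits that left out 1 library, all but that without EET 2. Lum (lumican), Fmod (fibromodulin) and Aspn (asporin) were called in neither fit, with log2 fold changes of 0.16 ± 0.08, −0.21 ± 0.11 and 0.09 ± 0.28 on the deposited counts, though Fmod was called lower with library totals (−0.28). Aspn rested on 1 library, EET 1, which had 3.22 CPM beside 1.63 and 1.71 CPM in EET 2 and EET 3.

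Levels of different genes can be compared per kilobase of mRNA. On that scale Sparc led at 691 ± 31.3 CPM per kilobase in the EET libraries and 670 ± 29.9 CPM per kilobase in the control libraries, followed in the mean of all 6 libraries by Tnc, Thbs1, Bgn and Dcn. The levels per kilobase were 213 ± 11.0 in the EET libraries and 317 ± 13.2 in the control libraries for Tnc, and 188 ± 14.8 in the EET libraries and 308 ± 23.8 in the control libraries for Thbs1, so Tnc and Thbs1 did not differ within the control libraries beyond their spread. At the other end Eln was at 0.243 ± 0.0219 in the EET libraries and 0.209 ± 0.0810 in the control libraries. The gene with the highest level in each role was the same when the length of all exons together was used.

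**Figure D4:**
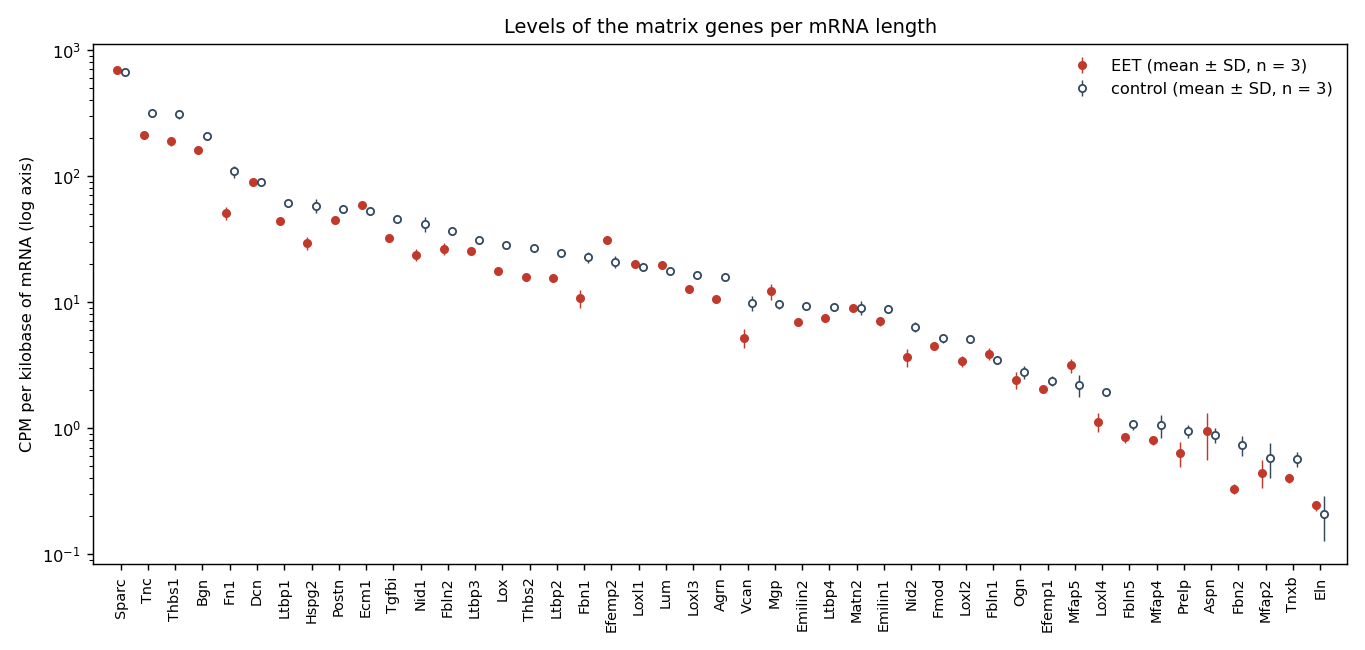
Levels of the 45 genes in CPM per kilobase of mRNA (log axis, mean ± SD over 3 libraries), EET as filled red circles and control as open circles, in order of the control level. Sparc stands highest with nearly equal means in both groups, the means of Dcn also nearly coincide, and for Tnc, Thbs1, Bgn, Fn1 and Hspg2 the red circles lie under the open ones.

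Ratios of counts of related genes within a library do not depend on library scaling, although the 2 genes' own lengths still enter. The 15 ratios were chosen by name, and no share over other gene pairs was computed. Among single genes tested 28.0% lay wholly below and 29.6% wholly above on the deposited counts. Of the 15 ratios 10 did not overlap between the groups. For these the exact two-sided permutation test gave p = 0.1, the smallest that 3 against 3 libraries allow (adjusted p = 0.15 over the 15). Loxl1 to Lox was 0.891, 0.716 and 0.761 in the EET libraries, against 0.499, 0.468 and 0.434 in the control libraries. Efemp2 to Efemp1 was 21.96, 19.99 and 17.0 in the EET libraries, against 12.3, 10.4 and 11.8 in the control libraries, and there the gene with the longer mRNA gained. Dcn to Bgn was 0.407, 0.419 and 0.386 in the EET libraries, against 0.333, 0.305 and 0.306 in the control libraries.

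Loxl1 to Loxl2, Fbln1 to Fbln2 and Sparc to Fn1 were also higher in every EET library than in every control library. Sparc to Fn1 moved most of the 15, averaging 3.79 ± 0.455 in the EET libraries and 1.72 ± 0.275 in the control libraries (SD, n = 3 each), and its mRNA lengths differ most, at 2300 and 8315 bp. Nid2 to Nid1 averaged 0.124 ± 0.00642 in the EET libraries and 0.123 ± 0.0125 in the control libraries (SD, n = 3 each), and Fbn2 to Fbn1 averaged 0.0286 ± 0.00309 in the EET libraries and 0.0299 ± 0.00240 in the control libraries; both overlapped. The pairs Thbs2 to Thbs1, Ltbp4 to Ltbp3 and Emilin2 to Emilin1 also overlapped between the groups, which does not show that they were equal. Ltbp2 to Ltbp1, whose mRNAs are 6769 and 6671 bp, averaged 0.359 ± 0.0155 in the EET libraries and 0.408 ± 0.00571 in the control libraries, without overlap.

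**Figure D5:**
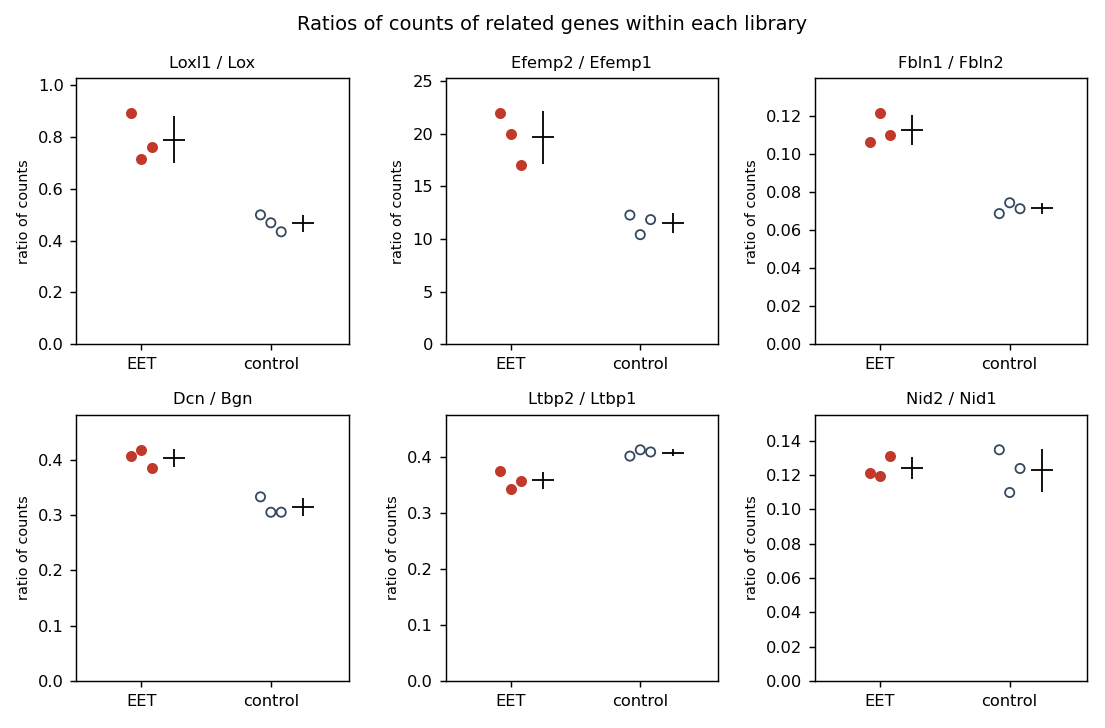
Each panel gives the ratio of counts of 2 related genes in each library (vertical axes from 0), EET as filled red circles left and control as open circles right, with the mean ± SD of 3 libraries as a cross. The ratios of Loxl1 to Lox, Efemp2 to Efemp1, Fbln1 to Fbln2 and Dcn to Bgn are higher in all EET libraries, Ltbp2 to Ltbp1 is lower in all of them, and Nid2 to Nid1 overlaps.

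Promoter sequences are shown for 2 genes called lower in both fits and for the gene called higher in both. All come from the 16 genes whose RefSeq window (GRCm38.p6) holds no annotated exon and ends within 100 bases of the GENCODE gene start. The 2 genes called lower are those of these 16 with the smallest p in the fit with the trend removed. Each line gives the 250 bases before the start, 5′ to 3′ on the gene's strand, with matches to the searched motifs in capitals; Bgn is chrX:73483351-73483600, plus strand, Thbs2 is chr17:14694263-14694512, minus strand, and Efemp2 is chr19:5473696-5473945, plus strand.
Bgn: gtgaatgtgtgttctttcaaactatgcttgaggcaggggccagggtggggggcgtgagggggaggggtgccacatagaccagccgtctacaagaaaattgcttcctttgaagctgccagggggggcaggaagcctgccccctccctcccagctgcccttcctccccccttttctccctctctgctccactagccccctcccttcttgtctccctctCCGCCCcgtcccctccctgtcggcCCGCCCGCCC
Thbs2: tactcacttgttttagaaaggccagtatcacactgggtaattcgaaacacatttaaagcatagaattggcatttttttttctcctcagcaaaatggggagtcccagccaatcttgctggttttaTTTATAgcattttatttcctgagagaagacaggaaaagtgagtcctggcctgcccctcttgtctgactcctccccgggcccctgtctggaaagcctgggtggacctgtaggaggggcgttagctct
Efemp2: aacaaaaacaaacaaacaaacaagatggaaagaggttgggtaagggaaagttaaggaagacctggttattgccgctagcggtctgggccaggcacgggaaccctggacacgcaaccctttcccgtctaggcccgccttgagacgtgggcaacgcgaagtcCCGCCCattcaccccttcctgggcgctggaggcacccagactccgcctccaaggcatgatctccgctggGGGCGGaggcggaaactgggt
The motifs, searched on both strands, were an AP-1 motif spelled TGANTCA, a SMAD motif spelled GTCTAGAC, a TEAD motif spelled GGAATG, a GC box spelled GGGCGG and a TATA box spelled TATAAA. Bgn holds 3 matches to the GC box and Efemp2 holds 2, while the single match in Thbs2 is to TATA on the opposite strand; some GC box matches in Bgn overlap each other. The windows counted next were not held to the limits on exons and distance. That of Sparc ends 3103 bases from the GENCODE gene start, and that of Fbn1 1555 bases. Among 30 of the 45 genes with a window, 16 hold a GC box, 6 a TATA motif, 3 an AP-1 motif, 3 a TEAD motif and 0 the SMAD motif. Over 20544 promoters the shares were 39.4, 12.2, 6.43, 12.1 and 0.161%, and a match is a description of letters, not a bound site.

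Genes that share exons with another gene on the opposite strand are uncertain, because no source states whether reads were counted by strand; 19 of the 45 genes have such an overlap. The longest is that of Fbn1 with Gm9913, 2442 bp or 20.4% of the Fbn1 mRNA, yet Gm9913 was at 0.611 CPM in the EET libraries and 0.507 CPM in the control libraries. Loxl3 shares 535 bp with Htra2, which had a log2 fold change of 0.51, and Nid2 shares 437 bp with Rtraf, which had 0.90, both opposite in sign to the matrix gene. The part of these overlaps in the results was not tested.

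The other matrix genes and the machinery that makes matrix were counted from 4 lists. Of 58 other matrix genes tested, 15 were called lower and 7 higher, or 12 and 3 with the trend removed, beside 23.3% lower and 24.6% higher over all genes tested on the deposited counts and 17.1% and 15.3% with the trend removed. Pxdn, the peroxidase that cross-links collagen IV, averaged 140 ± 17.0 CPM in the EET libraries and 237 ± 17.3 CPM in the control libraries (SD, n = 3 each), with log2 fold changes of −0.76 and, with the trend removed, −0.26. Sned1, a glycoprotein with a nidogen-like domain, averaged 6.13 ± 1.11 CPM in the EET libraries and 15.1 ± 2.20 CPM in the control libraries (−1.30, or −0.68). Igfbp7 was called higher on the deposited counts (0.30) and lower with the trend removed (−0.40). The genes higher with the smallest p were Spp1, which encodes osteopontin (2381 ± 129 CPM in the EET libraries and 1575 ± 77.6 CPM in the control libraries; 0.60, or 0.10), and Creld2, an endoplasmic reticulum protein (0.78, or 0.18).

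Of 44 genes of glycosaminoglycan synthesis, which put the sugar chains on proteoglycans, 23 were called lower and 6 higher, but 8 and 5 with the trend removed. The shares over all genes tested were 23.3% lower and 24.6% higher on the deposited counts, and 17.1% and 15.3% with the trend removed, so the corrected count of lower calls is near the background. Chst11, a chondroitin sulfotransferase, had −0.77, or −0.37 with the trend removed, and Xylt1, which adds the first xylose, −0.99, or −0.36. B3gat3, which completes the linker sugar, had 0.78, or 0.25, and Slc35b2, the transporter of the sulfate donor, 0.58, or 0.33. All 4 were called in both fits. Ext1 (−0.23, or 0.30 with the trend removed) and Hs2st1 (−0.22, or 0.22) were called lower on the deposited counts and higher with the trend removed.

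Of 28 genes of collagen folding and processing 10 were called lower and 4 higher (all genes: 23.3% and 24.6%), or 13 and 2 with the trend removed (all genes: 17.1% and 15.3%). Mia3, the receptor that loads procollagen into vesicles, had −0.56, or −0.60 with the trend removed, and the coat gene Sec23a −0.52, or −0.36. P3h4, part of a collagen lysine-modifying complex, had 0.56, or 0.28. Ppib, which encodes the prolyl isomerase cyclophilin B on an mRNA of 892 bp, was called higher on the deposited counts (0.57) and lower with the trend removed (−0.34).

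Of 17 genes of TGF-beta release and response 14 were called lower and 0 higher, where 23.3% and 24.6% of all genes were, or 10 and 2 with the trend removed, where 17.1% and 15.3% were. The 2 called higher with the trend removed were Tgfbr2 (−0.44, or 0.17) and Smad2 (−0.19, or 0.38). Both were called lower on the deposited counts. The smallest p belonged to Itgav, an integrin subunit that frees TGF-beta from its latent complex (185 ± 28.6 CPM in the EET libraries and 332 ± 39.3 CPM in the control libraries; −0.84, or −0.36 with the trend removed), and Tgfbr3, the co-receptor betaglycan (−0.83, or −0.36).

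Markers of muscle stem cells and of other cells were both present in every library. The 10 stem cell markers summed to 3097 to 3188 CPM in the EET libraries and 2931 to 3118 CPM in the control libraries, and the highest of them, Myod1, averaged 1159 CPM in the EET libraries and 977 CPM in the control libraries. Their lowest, Calcr, averaged 1.74 CPM in the EET libraries and 1.35 CPM in the control libraries. Of the 10, 2 were called lower, Pax7 and Megf10 (−0.45 and −0.64), and 4 higher, Myf5, Myod1, Sdc4 and Chrdl2. With the trend removed Pax7 and Megf10 had −0.05 and −0.07, neither called. In that fit 1 marker was called lower and 0 higher. The 1 was Myod1, at −0.14 there and 0.25 on the deposited counts. The 10 endothelial markers summed to 197 to 213 CPM in the EET libraries and 312 to 325 CPM in the control libraries; 6 were called lower and 1 higher, or 8 and 0 with the trend removed, beside 23.3% lower and 24.6% higher over all genes tested, or 17.1% and 15.3%. Pecam1, the highest over all 6 libraries, averaged 50.4 CPM in the EET libraries and 76.9 CPM in the control libraries. Cdh5, Kdr and Flt1 had the largest falls of the list, at −0.97, −1.18 and −1.16. With the trend removed they had −0.80, −0.74 and −0.62. Egfl7 was called higher on the deposited counts (0.53), but not with the trend removed (−0.06). Emcn, Esam and Cldn5 were not called on the deposited counts (0.00, 0.04 and 0.10). The 8 Schwann and neural crest markers summed to 345 to 378 CPM in the EET libraries and 453 to 458 CPM in the control libraries, with Ngfr highest (131 CPM with EET and 187 CPM in the control libraries); 5 were called lower and 1 higher, or 5 and 0 with the trend removed. Endothelial and Schwann cells are known to make basement membrane of their own, and the part of these cells in the lower matrix values was not tested.

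Markers of mesenchymal cells and macrophages are given in the same way. Their calls stand beside 23.3% lower and 24.6% higher over all genes tested, or 17.1% and 15.3% with the trend removed. The 11 fibro-adipogenic markers outside the 45 genes summed to 206 to 215 CPM in the EET libraries and 229 to 237 CPM in the control libraries, and Gsn, the highest over all 6 libraries, had a log2 fold change of −0.05. Of 11 tested genes of the full list 1 was called lower and 0 higher, or 3 and 0 with the trend removed. The 1 called lower on the deposited counts was Pdgfra, which averaged 52.8 CPM in the EET libraries and 78.9 CPM in the control libraries (−0.58 on the log2 scale, and −0.05 after correction for length and GC). The 6 tenocyte markers summed to 272 to 273 CPM in the EET libraries and 302 to 308 CPM in the control libraries, with Egr1 highest (134 CPM with EET and 161 CPM in the control libraries), and of 6 tested genes of the full list 2 were called in each direction, or 1 lower and 0 higher with the trend removed. Egr1 and Thbs4 were called lower on the deposited counts (−0.26 and −0.35). Scx and Tnmd were called higher there (0.94 and 1.08), and had 0.09 and 0.51 with the trend removed, neither called. Scx averaged 39.3 CPM in the EET libraries and 20.4 CPM in the control libraries, so the lower sum does not describe every marker. The 10 mural markers summed to 1118 to 1307 CPM in the EET libraries and 940 to 1046 CPM in the control libraries, mostly Des, which muscle cells also express, while 5 of 9 tested were called lower and 3 higher, or 3 and 1 with the trend removed. The 10 macrophage markers summed to 197 to 387 CPM in the EET libraries and 308 to 340 CPM in the control libraries, which overlap; Lyz2, the highest, was at 283, 145 and 128 CPM in the EET libraries, against 206, 212 and 230 CPM in the control libraries. Of the macrophage markers 2 were called lower and 0 higher, or 6 and 1 with the trend removed. No marker had 0 counts over the 6 libraries, though 3 fibro-adipogenic, 1 tenocyte and 1 mural marker stayed below 1 CPM in each, and the part of these cells in the results was not tested.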

How the data were processed

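The deposited table gives raw counts for each gene symbol in each library, not normalized by the authors, per the file headers; GRCm38, FastQC, cutadapt and DESeq2 are named per the submitters' processing notes, and the aligner, counter and annotation could not be learned from the sources. Poly(A) selection, fragmentation and dUTP marking of the second strand are stated per the labels' protocols. Among counts of 11 to 50, 65.0 to 65.6% were even in the EET libraries and 61.3 to 62.1% in the control libraries, so mates of a fragment may have been counted apart and precision falls short of what 30371291 to 37243882 counts per library allow; a fit on counts divided by 2 covers this. The counts were fitted with edgeR 4.0.16 under R 4.3.3 (filterByExpr filter, TMM, robust glmQLFit, then glmQLFTest), 3 EET against 3 control libraries; SE is the log2 fold change over the root of F. In the second fit, a robust loess (span 0.3) of log2 CPM deviations (prior count 2) on log2 length of the longest coding transcript and on GC content (GENCODE M21, GRCm38), made on coding genes, entered as an offset; 263 tested genes had no length and kept an offset of 0. Both fits were also run on simulated counts, without a trend and with the trend that the same loess had estimated from these libraries. Such runs cannot show whether the correction is right for the real libraries. All 45 genes may be named; library values are given for the 12 called genes with the smallest p, the highest gene per length in each role, and Efemp2, added after its values were seen. Other lists give the 2 genes with the smallest p in each direction, marker lists the gene with the highest CPM. Further genes of these lists that the text names lie outside that rule. Alternatives included DESeq2 1.42.0 and limma-voom (limma 3.58.1). The genes, lists and tests were chosen with earlier results of these data known, so counts over them are descriptions.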

Additional observations from a re-analysis of the deposited data

How the results depend on the processing

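The count of 27 genes called lower stayed within 25 to 26 when each library was left out in turn, and the count called higher was 1 to 4; with the trend removed these ranges were 19 to 27 and 1 to 2. DESeq2, library totals, a stricter filter (above 5 CPM in 3 libraries or more) and removal of the length trend alone each called 1 gene higher. The median of the 45 genes was −0.45 with library totals, −0.22 with the length trend alone removed and −0.23 after correction for both length and GC; the cause was not tested. Replicate numbers did not pair the libraries (correlation of deviations −0.003, −0.05 and 0.009), and a fit with the number as a block called 27 lower and 3 higher, with a median of −0.37, or 26 and 2 with the trend removed. Library totals also called Fbln5 and Fmod lower, and the stricter filter Fbln5, while Mfap5 lost its call with library totals and DESeq2, and Prelp with DESeq2 and no filter. Limma-voom and edgeR without robust estimation changed no call or direction.

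Direction turned for these genes, of which Ecm1 and Mgp were called both ways: lower with the trend removed, and higher on the deposited counts without EET 3 (0.19 for Ecm1 and 0.47 for Mgp). Matn2 was −0.012 with RLE scaling, −0.068 with library totals, −0.0016 with no filter, −0.013 with DESeq2 and −0.0026 with counts divided by 2, and Sparc was −0.026 with library totals. After correction for length and GC, Sparc was −0.16, Lum −0.031, Aspn −0.13, Fbln5 0.073, Mgp −0.77, Ltbp1 0.033 and Ecm1 −0.22. With the length trend alone removed, Sparc was −0.18, Lum −0.023, Aspn −0.13, Tnxb 0.22, Fbln5 0.048, Mgp −0.79, Ltbp1 0.0090, Ltbp3 0.034, Ltbp4 0.062, Mfap5 −0.0044 and Ecm1 −0.19. Over the fits without 1 library each, Dcn ranged from −0.016 to 0.0093, Aspn from −0.30 to 0.26, Matn2 from −0.089 to 0.095 and Eln from −0.051 to 0.49. With the trend removed as well, Mfap5 ranged from −0.17 to 0.15, Aspn from −0.54 to 0.061, Tnxb from −0.082 to 0.010, Fbln5 from −0.020 to 0.14 and Ltbp4 from −0.067 to 0.0021. Genes near or under 1 CPM, such as Eln and Mfap2, had standard errors too large for small changes to be detected.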
